A study of Rattus norvegicus with 4 samples.

Results

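Genistein and control diet were compared in denervated soleus, on the array of the genistein diet, denervated group against the array of the control diet, denervated group, which are 2 of the series' 4 arrays. Each array held RNA pooled from 8 male Wistar rats, so each group is 1 measurement. There is no replicate error, no test and no p-value, and a difference between the diets cannot be told apart from a difference between the 2 pools or the 2 hybridisations. Both groups entered the study at 10 weeks of age (the age label reads 14 weeks), ate their diet for 24 days, had the left sciatic nerve cut on day 14 and gave their soleus 10 days later. The genistein diet was AIN-93G, a standard purified rodent diet, with genistein at 0.5 g per kg (0.05%). The control diet was AIN-93G without genistein in which corn oil took the place of soybean oil, and the labels mention that change of oil for the control diet alone. The other 2 arrays (control diet, sham and genistein diet, sham) hold the sham-operated right soleus of the same rats and share no array with the denervated comparison.

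The soleus is a calf muscle of mainly slow, oxidative fibres that works against gravity. When its motor nerve is cut, the fibres lose mass through the ubiquitin-proteasome system and autophagy, switch on acetylcholine receptor subunits outside the former synapse and shift toward fast myosins, while the fibroblasts, macrophages, capillary cells and fat cells between the fibres also respond. Genistein is a soy isoflavone that binds oestrogen receptors and, at high doses, inhibits tyrosine kinases. The comparison asks which transcripts differed in the denervated muscle of rats fed genistein.

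A gene was represented by its brightest probe set, and a signal under 78.9 units, the 40th percentile of all probe sets, was treated as background and raised to that floor. Of 14217 named genes, 10479 stood above the floor on at least 1 of the 2 denervated arrays and are called measured. Ratios are log2 of genistein over control diet, so a ratio of 1 is a 2-fold higher signal on genistein and a negative ratio a lower one. Where 1 side lay at the floor, the ratio is a lower bound. The treatment-group label contradicts the title on 2 of the 4 arrays, the control diet denervated one included, and groups follow the titles. Chrna1, the acetylcholine receptor alpha subunit that denervated muscle makes, read 20549.7 and 16185.7 units on the arrays titled denervated against 1859.7 and 1589.4 on those titled sham. That is the order the titles give, while no gene here checks the diet. The 2 denervated arrays correlated at r = 0.985 across genes on the log2 scale, against 0.989 for the 2 sham arrays, genes not being independent replicates. The 3′ to 5′ signal ratio of beta-actin, a measure of RNA integrity, was 3.79 on the control and 2.76 on the genistein denervated array and 2.08 and 2.32 on the sham arrays, while that of Gapdh was 1.14 and 1.13, and 1.24 and 1.20. This gap in the actin ratio lies along the diet comparison, and its part in the results was not tested.

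In denervated soleus 107 genes read at least 2-fold higher on genistein, 1.02% of the 10479 measured, and 13 read at least 2-fold lower, 0.124%. Of the 107 higher genes 23 (21.5%), and of the 13 lower genes 1, belong to at least 1 of the 37 gene lists used here, as do 551 of all 10479 measured genes (5.26%). The lists were chosen with earlier results of these data known, so nothing is read from that difference. The median ratio of all measured genes was 0.00 with an SD of 0.32 across genes. Higher calls made up 89.2% of all calls on the authors' scale, 69.3% after scaling each array to its median and 79.1% after quantile normalization, since median scaling moves the median of all genes to -0.13. Scaling on the hybridisation controls moves it to 0.15, so a ratio nearer to 0 than these shifts has no settled direction. Only 17 of the higher genes had a second measured probe set. It was above 0 for 16 of the 17 but past 2-fold for only 2, with a median ratio of 0.43, so most 2-fold values here rest on 1 probe set. Just inside the upper threshold the lowest ratio was 1.0025, and just outside it lay Col1a2, a chain of type I collagen, at 0.9966. Around the lower threshold these ratios were -1.02 and -0.99.

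The ratio also moved with the signal level. Among genes whose brighter denervated array read 200 to 500 units, 58 of 2566 were at least 2-fold higher and the median ratio was 0.07. Between 5000 and 10000 units none of 458 genes was past 2-fold in either direction and the median was -0.09. At 10000 units or more the median was -0.16 and 220 of 251 genes lay below 0. Bright transcripts thus read slightly lower on the genistein array as a class, and the small negative medians of fibre lists are given beside that value.

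**Figure D1:**
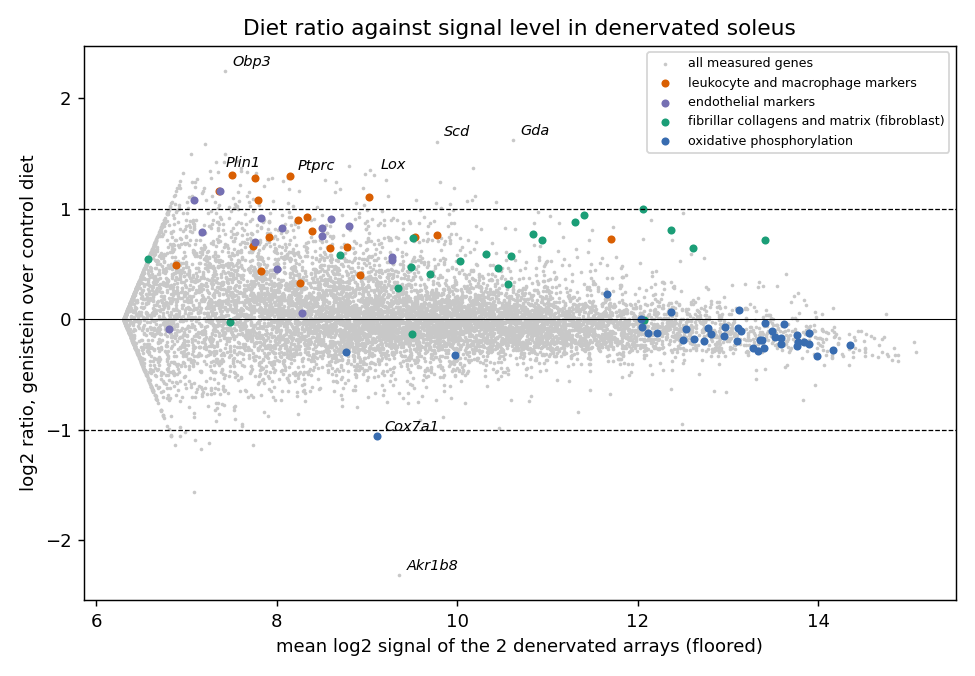
Each point is a measured gene, with the mean log2 signal of the 2 denervated arrays (signals under 78.9 units raised to it) on the x axis and the log2 ratio of genistein over control diet on the y axis. Dashed lines mark 2-fold. Leukocyte markers (orange), endothelial markers (purple) and fibrillar matrix genes (green) lie mostly above 0. Oxidative phosphorylation genes (blue) lie mostly toward the bright end, where most genes of any kind sit slightly below 0.

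Across 12 lists of connective tissue and of cells other than the muscle fibre, 124 of 152 distinct measured genes (81.6%) read higher on genistein, against 50% of all measured genes, and 16 (10.5%) were at least 2-fold higher, against the 1.02% of all genes. Their median ratio was 0.53. Across 11 lists of the fibre itself (slow, fast and developmental muscle genes, nerve loss, energy metabolism, and protein breakdown with autophagy and lysosome), 63 of 213 genes (29.6%) lay above 0, with a median of -0.12. Of these 1 was at least 2-fold higher (Ctsk) and 1 at least 2-fold lower (Cox7a1). Both sets of lists were chosen with earlier results of these data known, and the first set holds the markers Ptprc, Lox and Plin1. Nothing is therefore read from the differences in these shares. The lower actin 3′ to 5′ ratio of the genistein array stands beside both sets of lists, and its part was not tested. In pooled muscle RNA, fewer cells of a type and less RNA per cell cannot be told apart.

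**Figure D2:**
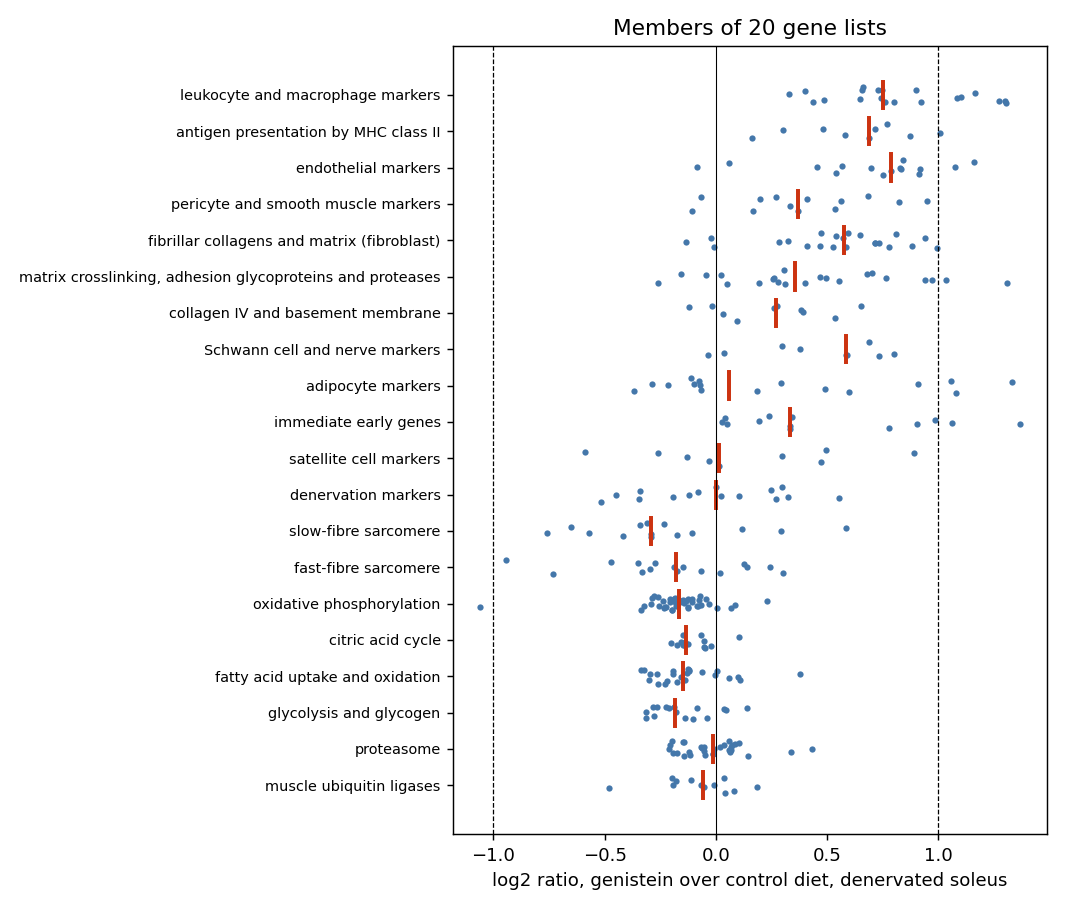
Each point is a measured member of 1 of 20 gene lists and its log2 ratio of genistein over control diet in denervated soleus, with the list's median as a red bar and 2-fold as dashed lines. The lists of leukocytes, vessels and matrix sit right of 0, and those of metabolism and protein breakdown lie close to 0 or slightly left of it.

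Macrophage and general leukocyte markers read higher on genistein in the denervated leg. All 20 measured members of the leukocyte and macrophage list, of 22 on the array, read higher on genistein, 6 of them at least 2-fold, and the list's median ratio was 0.75. Of all measured genes 50% lay above 0 and 1.02% were at least 2-fold higher. The list was chosen with earlier results of these data known, so nothing is read from that difference. The same shares and the same limit stand beside each list below. Its summed signal was 7647.5 units on the control and 13012.1 on the genistein denervated array, against 13013.6 and 13320.4 on the sham arrays. The control diet denervated array was thus the low one of the 4. Ptprc, the CD45 phosphatase carried by all leukocytes, read 180.2 units on control and 444.0 on genistein, a ratio of 1.30. Its second probe set gave 0.33, so the size of that difference depends on the probe set. Cd163, a haemoglobin scavenger receptor of resident macrophages, read 115.0 and 284.7 (ratio 1.31). Mrc1, the mannose receptor of the same cells, read 353.0 and 759.3 (1.10). The tetraspanin Cd53 gave a ratio of 1.28, the beta-2 integrin Itgb2 1.17 and the endotoxin co-receptor Cd14 1.08. Lysozyme (Lyz2), a macrophage product, read 2587.0 and 4287.5 units (0.73). Itgam and Cx3cr1 were not above the floor on either denervated array. In the sham leg 11 members of the list lay above 0 and 9 below, with a median of 0.04. Of the 6 members past 2-fold, Cd163 gave 0.66 there, Mrc1 0.48, Ptprc 0.41, Cd14 0.35 and Itgb2 0.19, while Cd53 gave -0.34. Most of these 6 thus also lay above 0 in the sham leg, as did 50.5% of all genes measured there. No diet difference in the sham leg is read from them, since the whole list was divided there.

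The promoters of 3 of the higher blood-cell genes are printed to show the letters of a leukocyte motif. PU.1 is a transcription factor of macrophages, granulocytes and B cells whose core site reads GAGGAA. The windows run from 250 bases before to 50 after the start in RefSeq annotation of GRCr8, the strand is that of the gene, and capitals mark the motif on either strand. Ptprc lies at chr13:52259697-52259996 (minus strand), Cd53 at chr2:197087847-197088146 (minus strand) and Fes, a tyrosine kinase of myeloid cells, at chr1:143756132-143756431 (minus strand).
Ptprc: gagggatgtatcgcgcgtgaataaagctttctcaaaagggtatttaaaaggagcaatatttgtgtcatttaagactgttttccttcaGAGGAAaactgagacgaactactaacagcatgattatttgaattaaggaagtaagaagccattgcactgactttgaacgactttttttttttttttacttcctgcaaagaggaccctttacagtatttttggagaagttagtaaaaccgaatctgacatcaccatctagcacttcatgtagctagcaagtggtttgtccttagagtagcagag
Cd53: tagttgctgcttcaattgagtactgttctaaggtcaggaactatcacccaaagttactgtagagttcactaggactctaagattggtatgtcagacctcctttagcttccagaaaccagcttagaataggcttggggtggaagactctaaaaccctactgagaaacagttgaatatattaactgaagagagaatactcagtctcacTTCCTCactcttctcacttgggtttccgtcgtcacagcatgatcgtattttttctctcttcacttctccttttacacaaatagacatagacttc
Fes: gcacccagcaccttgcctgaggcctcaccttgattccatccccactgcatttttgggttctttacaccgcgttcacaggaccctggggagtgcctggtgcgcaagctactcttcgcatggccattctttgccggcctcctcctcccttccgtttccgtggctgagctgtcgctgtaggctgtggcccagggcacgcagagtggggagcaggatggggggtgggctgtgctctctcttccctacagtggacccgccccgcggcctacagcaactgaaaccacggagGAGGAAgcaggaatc
Each window holds 1 match, and in Cd53 it is on the reverse strand, read as TTCCTC. Of the 107 higher genes 79 had a promoter in the RefSeq table, and 33 of these (41.8%) held GAGGAA. The share was 26.1% among the 8749 measured genes with a promoter and 27.5% among all 27457 promoters of that length. Among the lower genes it was 5 of 12. A match is a run of letters, not a bound site. Fes itself read 81.6 units on control and 168.8 on genistein (1.05), and Cd53 139.4 and 337.6.

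The 15 highest ratios among genes above the floor on both arrays held further genes known from immune or vessel-lining cells. The inhibitory Fc receptor Fcgr2b read 85.1 units on control, close to the floor, and 256.2 on genistein, 3.01-fold higher. The C-type lectin Clec4a3 read 209.1 and 542.7 (1.38). Lyve1, a hyaluronan receptor of lymphatic endothelium and of some tissue macrophages, read 326.7 and 832.1 (1.35), with a second probe set at 0.38. On the sham arrays these 3 genes differed little between diets, at 0.10, -0.07 and 0.08.

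Antigen presentation by MHC class II followed the same direction, with all 9 measured members above 0 and a median of 0.69. RT1-Ba, a class II alpha chain, read 638.1 units on control and 1284.7 on genistein and was the 1 member past 2-fold. Ciita, the activator of class II transcription, gave 0.69 and the invariant chain Cd74 0.48. RT1-DMb, part of the peptide-loading chaperone, gave 0.16. For denervated over sham on each diet, ratios that share their denervated arrays with the diet comparison, the class II genes had a median of -0.23 on control and 0.39 on genistein.

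Few markers of lymphocytes were measurable, with only 4 of 15 markers of T, B, NK, mast cells and neutrophils above the floor. Cpa3, the mast cell carboxypeptidase, read 121.9 units on control and 308.8 on genistein (1.34). The mast cell chymase Cma1, chosen after its value was seen, was under the floor on control (45.2) and read 179.5 on genistein, at least 2.28-fold higher. Another mast cell protease, Tpsb2, chosen the same way, ran opposite, at 144.3 and 24.9, so mast cell genes did not all differ in 1 direction. Neutrophil S100a8 and S100a9 gave 1.07 and 0.87, and the T cell receptor subunit Cd3g -0.02. The defining T and B cell markers Cd3d (3.2 and 19.5 units) and Ms4a1 (10.4 and 37.3) lay far under the floor.

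Signals that recruit or follow leukocytes differed less. Of 15 measured chemokine, cytokine and receptor genes, 13 lay above 0, with a median of 0.30 and none past 2-fold. Ccl2, which draws monocytes, read 180.6 and 311.3 units on the denervated arrays (0.79) and 108.9 and 196.7 on the sham arrays (0.85), so it was higher on genistein in both legs. Tnf, Il6 and Il10 were under the floor on all 4 arrays. Complement gave a median of 0.49 over 5 genes, led by Cfd at 1.08, a serine protease that fat cells secrete in quantity. The interferon response list was divided, with 9 of 15 members above 0 and a median of 0.08 that ran from -0.06 to 0.23 across other scalings. Within it Gbp2 gave 0.81, whereas Ifit1 gave -0.67. Mx2 gave -0.85 on 1 probe set and 0.47 on another, so it has no settled direction.

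Erythrocyte genes, which enter muscle RNA with blood, read lower on genistein in the denervated leg. Beta-globin (Hbb) read 10137.4 units on control and 6428.7 on genistein in the denervated leg (-0.66), and 15168.8 and 7469.1 in the sham leg (-1.02). Alas2, the erythroid haem synthesis enzyme, gave -0.76 and -0.71. The third measured member, the anion exchanger Slc4a1, read 105.0 and 49.1 in the denervated leg, the second value under the floor, but 165.0 and 203.6 in the sham leg (0.30), so it was higher on genistein there. The part of blood content in the other lists was not tested.

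Vessel markers were higher on genistein as well. Of 15 measured endothelial markers 14 lay above 0, 2 of them past 2-fold, with a median of 0.79. Their summed signal was 3698.5 units on the control and 5940.9 on the genistein denervated array, and 7184.4 and 7073.8 on the sham arrays. Sox18, a transcription factor of endothelial cells, read 110.7 and 247.7 (1.16), and the adhesion molecule Mcam 92.9 and 195.9 (1.08). Kdr, the main receptor for VEGF, read 281.7 on control and 530.1 on genistein (0.91), both below the 1010.0 and 985.2 of the sham arrays. Pecam1 gave 0.06 and the VEGF receptor Flt1 -0.09, close to 0. The growth factor itself, Vegfa, read 737.2 and 813.7 (0.14), with a second probe set at -0.54. Pericyte and smooth muscle genes gave a median of 0.37, with 11 of 13 above 0, led by the actin-binding protein Tagln at 0.95 and the channel subunit Kcnj8 at 0.82. Summed over that list, the signal was not higher on genistein, at 21094.4 units on the control and 20987.5 on the genistein denervated array. That sum weighs the brightest members most and says little of dim ones. Tagln read 144.4 and 278.9 units on these 2 arrays, and Kcnj8 137.0 and 242.6. Ptgis, the prostacyclin synthase of vessel walls and among the 15 highest ratios, read 120.4 units on control and 311.0 on genistein, and 532.9 and 533.1 on the sham arrays.

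Genes of the extracellular matrix were also mostly higher. Among 22 fibrillar collagen and matrix genes 19 lay above 0, with a median of 0.58 and none past 2-fold. Their summed signal was 41079.4 units on the control and 64168.3 on the genistein denervated array, against 92460.5 and 92404.5 in the sham legs. Type I collagen read 3026.8 and 6039.4 for Col1a2 and 564.0 and 937.4 for Col1a1 (0.73). Type III collagen (Col3a1) read 4998.1 on control and 7831.5 on genistein (0.65). Sparc, a collagen-binding matrix protein, gave 0.94 and the proteoglycans lumican (Lum) and decorin (Dcn) 0.81 and 0.72. Dpt, Fbln1 and the proteoglycan biglycan (Bgn) lay at -0.01, -0.02 and -0.13, and were the 3 members not above 0, although second probe sets of Dpt and Fbln1 gave 0.26 and 0.38. Pdgfra, the receptor that marks fibro-adipogenic progenitors, read 1038.1 and 1569.1 (0.60).

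Lox, the enzyme that crosslinks collagen and elastin, read 342.3 units on control and 849.0 on genistein (1.31), and 887.2 and 809.4 in the sham legs. The genistein denervated signal thus lay among the sham values, and a second probe set gave 0.72. Its relatives did not share the size of that difference, with Loxl1 at 0.26, Loxl2 at 0.20 and Loxl3 at 0.02. Tenascin C (Tnc) was the other member of the crosslinking, glycoprotein and protease list past 2-fold, at 114.9 and 235.9 units (1.04). Fibrillin 1 (Fbn1) gave 0.97, fibronectin (Fn1) 0.94 and the metalloproteinase inhibitor Timp1 0.77. Over the whole list 19 of 22 measured members lay above 0, with a median of 0.36. Prolyl hydroxylase P4ha1 and the protease Adamts1 lay at -0.16 and -0.26. Basement membrane genes differed less, with a median of 0.27 over 10 and Col4a1 at 0.54. Several tendon and matrix genes outside the lists, chosen after their values were seen, were past 2-fold: Tnmd at 1.24, Aspn at 1.19, Omd at 1.18 and Comp at 1.16.

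Fat cell genes were divided. Plin1, which coats the lipid droplet of adipocytes, read 102.9 units on control and 259.1 on genistein (1.33), against 116.8 and 98.8 in the sham legs, and so was high on 1 of the 4 arrays. Across the settings run, the denervated ratio of Plin1 went from 0.25 to 1.48, so its size is not settled. Cidec, another droplet protein, was under the floor at 71.3 on control and read 164.5 on genistein, at least 2.08-fold higher. The adipocyte hormone adiponectin (Adipoq) read 248.3 and 466.4 (0.91), and Cfd 787.4 and 1663.1. The list as a whole had 8 of 16 members above 0 and a median of 0.06, which ran from -0.07 to 0.11 across other scalings and rules. Summed over the list, the signal was 53416.3 units on the control and 47748.3 on the genistein denervated array. Lpl (-0.07), Car3 (-0.37) and Pnpla2 (-0.21), which muscle fibres also make, lay below 0. Leptin (Lep) was under the floor on all 4 arrays.

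Enzymes that make fatty acids accompanied Plin1 only in part. Scd, the desaturase that makes oleate, read 130.1 and 152.0 units in the sham legs, 501.3 in the control denervated and 1528.5 in the genistein denervated leg, 3.05-fold above control. Fatty acid synthase (Fasn) read 348.2 and 713.3 (1.03), though a second probe set gave 0.17. Pck1, which supplies glycerol for triglyceride in fat cells, gave 0.89. Acly gave 0.06. Acaca gave -0.12 and 0.21 on its 2 probe sets, and the lipogenic regulator Srebf1 -0.47 and 0.28, so neither has a settled direction. 7 of 12 members lay above 0 and the median was 0.04. The sterol regulatory element TCACNCCAC was in none of the 79 promoters of higher genes and in 1.11% of those of measured genes.

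Schwann cell and nerve genes gave a median of 0.59 over 9 measured members, 8 of them above 0 and none past 2-fold. Of the 9, 7 were above the floor on both arrays. The median is the ratio of Gfap, a lower bound at 57.9 units on control and 118.6 on genistein. It fell to 0.29 with no floor and a pseudocount of 50. Gap43, a growth cone protein that Schwann cells without axons also make, read 94.4 units on control and 164.6 on genistein (0.80). S100b gave 0.69 and myelin basic protein (Mbp) 0.59. Sox10, the defining factor of the lineage, was under 10 units on all 4 arrays, and Ngfr and Erbb3 were below the floor. Ncam1, which denervated fibres make too, read 4079.0 and 5012.6 (0.30). Of the satellite cell markers, those of muscle stem cells, 5 of 9 lay above 0, with Notch1 at 0.89 and the cadherin Cdh15 at -0.59.

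Immediate early genes, which cells switch on within minutes of a stimulus, were all above 0 on the authors' scale, 13 of 13, with a median of 0.34. This held in the sham legs too, where all 13 were above 0, against 50.5% of all genes, and the median was 0.30. Fos read 620.6 and 1155.9 units in the sham and 720.3 and 1857.2 in the denervated legs, control before genistein, and was higher on genistein in each leg (0.90 and 1.37). Egr1 read 1217.5 and 1837.4, then 951.4 and 1987.6 (0.59 and 1.06). Dusp1, a phosphatase that turns off MAP kinases, gave 0.99 in the denervated and 0.16 in the sham leg. Jun and Atf3 differed little in the denervated leg, at 0.04 and 0.03.

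Cish, a feedback inhibitor that cytokine and growth hormone signals induce through STAT5, was the gene among the 15 highest with the largest sham ratio. It read 111.3 and 128.3 units on the 2 control arrays and 306.2 and 324.3 on the 2 genistein arrays, with ratios of 1.46 and 1.34. Both genistein arrays thus lay above both control arrays, as they did for 10.1% of the 10147 genes measured in both legs. The 2 arrays of a diet hold the 2 legs of the same rats and are not independent measurements of that diet. The Cish promoter is printed because it holds 4 matches of the STAT5 core TTCNNNGAA, in capitals, at chr8:116850719-116851018 on the plus strand of GRCr8.
Cish: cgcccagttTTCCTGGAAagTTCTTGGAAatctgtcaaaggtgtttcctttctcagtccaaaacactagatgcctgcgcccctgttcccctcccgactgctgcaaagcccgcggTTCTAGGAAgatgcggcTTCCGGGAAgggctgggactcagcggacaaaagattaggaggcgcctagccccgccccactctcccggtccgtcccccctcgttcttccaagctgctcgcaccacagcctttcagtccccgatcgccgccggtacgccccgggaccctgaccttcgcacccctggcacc
At least 1 such match was in 7.59% of the 79 promoters of higher genes, 6.62% of those of measured genes and 8.68% of all. The motif was therefore about as frequent among higher genes as among measured ones. Igf1, a growth factor under growth hormone control in liver and also made locally in muscle, read 928.9 and 1509.9 units in the denervated legs (0.70, with 3 probe sets from 0.50 to 0.70) and 1621.1 and 1568.6 in the sham legs. It did not share the sham pattern of Cish, at -0.05. The phosphodiesterase Pde8a read 189.6 and 102.1 on control and 352.7 and 287.9 on genistein, again higher on both genistein arrays.

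**Figure D3:**
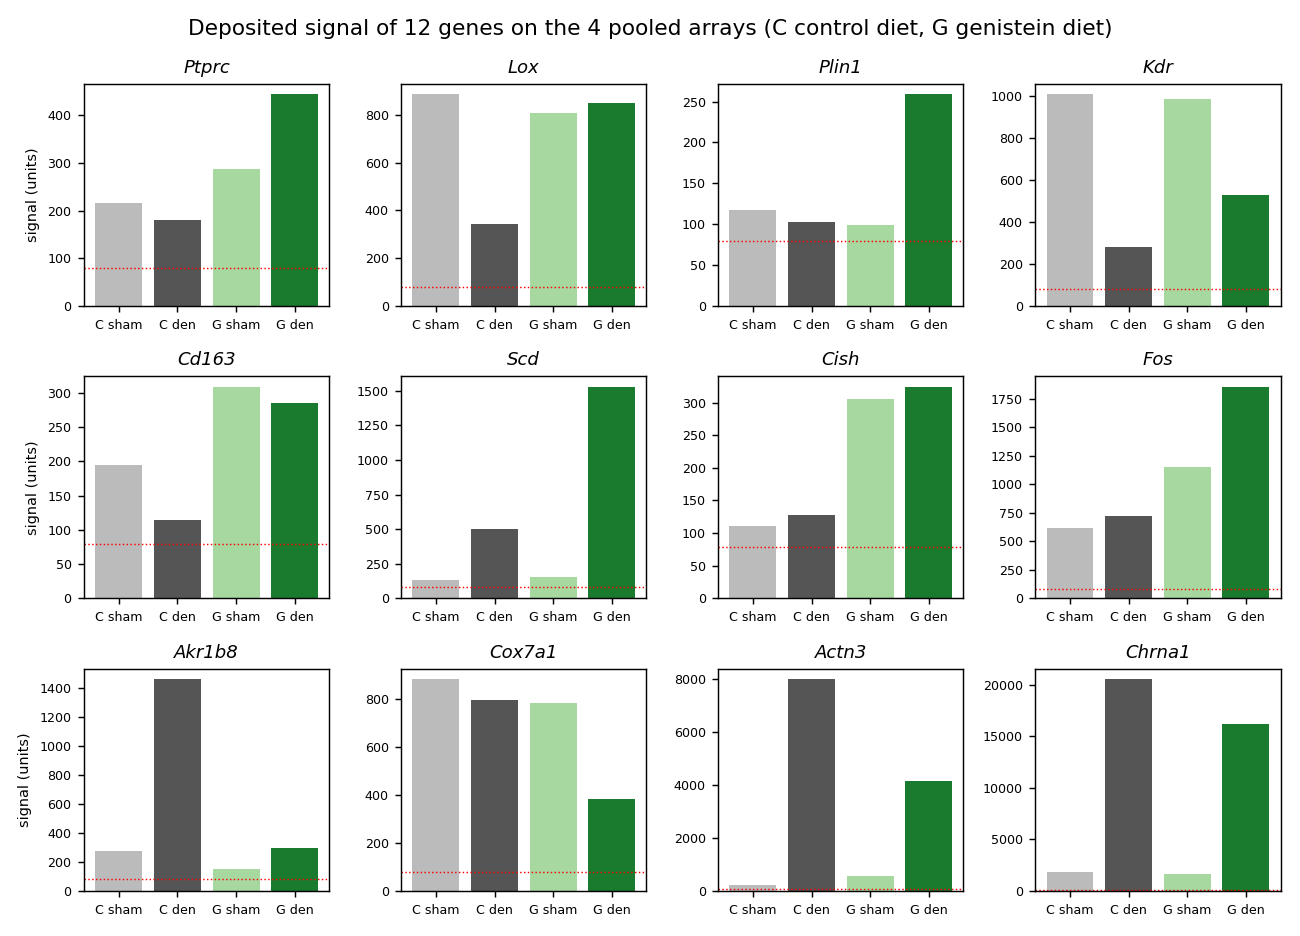
Bars give the deposited signal of 12 genes, in array units from 0, on each of the 4 pooled arrays (C control diet, G genistein diet, den denervated), 1 array per bar and so with no error bar, and the red dotted line is the floor of 78.9 units. Cish and Fos are higher on both genistein arrays, as were 10.1% of genes measured in both legs. Plin1 is higher on the genistein denervated array alone. Scd is higher on both denervated arrays than on the sham arrays and highest on the genistein one. Lox and Kdr are lowest on the control denervated array, while Akr1b8 and Actn3 are higher on the control than on the genistein denervated array.

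Genes of the nerve-loss programme were spread around a ratio of 0. Of 15 measured denervation markers 8 lay above 0, with a median of 0.00 and none past 2-fold. The fetal receptor subunit Chrng read 881.4 units on control and 1045.9 on genistein (0.25), and Chrnd 6543.2 and 6551.7 (0.00). Myogenin (Myog), which drives receptor genes after denervation, gave -0.08 and its relative Myod1 0.32. Hdac4, a repressor induced by nerve loss, read 2156.8 and 1506.5 (-0.52), Runx1 gave -0.45 on 1 probe set and 0.03 on another, and the stretch-responsive Ankrd1 0.56. The list's median ran from -0.13 to 0.15 across other scalings, so no direction is read from it.

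Protein breakdown genes also lay close to 0. Trim63 (MuRF1), a ubiquitin ligase that marks muscle atrophy, read 9461.2 units on control and 9397.2 on genistein (-0.01). Fbxo32 (atrogin-1), the other classical atrophy ligase, read 456.0 and 398.3 (-0.20). Fbxo30 gave 0.08 and -0.18 on its 2 probe sets and Mul1, a mitochondrial ligase, -0.48. The 12 muscle ligases had a median of -0.06 and the 31 proteasome subunits a median of -0.01, and both medians changed sign under another scaling. Foxo1, a transcription factor that induces both atrophy ligases, read 565.2 and 392.7 (-0.53), and Foxo3 2539.0 and 2471.7 (-0.04). Autophagy and lysosome genes had a median of 0.02 over 22, changing sign with the scaling, and the 1 member past 2-fold was Ctsk (1.02), a collagen-degrading cathepsin.

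Of the growth-signal list (IGF, Akt and FoxO), 9 of 20 measured genes lay above 0, with a median of -0.04 that changed sign with the scaling. Ddit4, a stress-induced inhibitor of mTORC1, read 286.3 and 514.3 units (0.85), and Irs2 gave 0.34. Akt2 and Mtor lay at -0.06 and -0.17, and the 3 probe sets of Akt1 ran from -0.58 to 0.36. In the myostatin, BMP and TGF-beta list 12 of 21 lay above 0, with a median of 0.02 that changed sign with the scaling. The activin antagonist Fstl3 was under the floor on control (12.4) and read 163.3 on genistein, at least 2.07-fold higher, and Bmp4 read 203.2 and 413.4 (1.02). Follistatin (Fst), which binds myostatin, gave -0.21, and myostatin itself (Mstn) was under the floor on all 4 arrays, as was Tgfb1.

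Oestrogen receptors, which genistein binds, were not measurable. Esr1 read 3.3 to 8.0 units and Esr2 3.6 to 11.3 over the 4 arrays, all under the floor, as were Gper1 and the target genes Pgr and Greb1. Of 14 measured genes of that list 6 lay above 0, with a median of -0.04 that changed sign with the scaling. The full oestrogen response element GGTCANNNTGACC was in none of the 79 promoters of higher genes and in 7 of all 27457. Its half-site AGGTCA was in 17.7% of the 79, 11.8% of the promoters of measured genes and 15.7% of all.

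In the denervated leg no slow- or fast-fibre gene was past 2-fold on its brightest probe set. The slow-muscle genes Myh7 and Tnnt1 were far above the floor on all 4 arrays, as a soleus label requires. Among slow-fibre genes 3 of 14 lay above 0 and the median was -0.29, which moved to -0.05 after quantile normalization. For fast-fibre genes the median was -0.18 and 5 of 16 lay above 0. Genes at or above 10000 units, whatever their list, had a median of -0.16. Slow myosin (Myh7) read 29532.4 units on control and 24103.9 on genistein (-0.29), with a second probe set at -0.70. The slow regulatory light chain Myl2 gave -0.65. Myh2 and Myh1, myosins of fast IIa and IIx fibres, lay at 0.24 and 0.13. Myh4, the myosin of the fastest fibres, read 82.0 and 143.5 in the sham and 18730.3 and 11285.7 in the denervated legs, control before genistein (-0.73). Actn3, the fast-fibre actinin, read 230.1 and 549.0, then 7988.1 and 4155.6 (-0.94). Both fast genes were thus lower on genistein in the denervated leg and higher in the sham leg, at 0.81 and 1.25. Tpm3 has 11 measured probe sets that ran from -0.76 to 1.07, and no direction is given for it. Embryonic myosin (Myh3) read 5008.9 and 7533.5 (0.59), in a developmental list with a median of 0.26 over 8.

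Genes of energy metabolism had small ratios, most of them below 0 on the authors' scale. Many of them read under 10000 units. Among all genes the median was -0.04 at 1000 to 5000 units, with 1729 of 2964 below 0. At 5000 to 10000 units it was -0.09, with 326 of 458 below 0. The part of signal level in these lists was not tested. Of 41 oxidative phosphorylation genes 4 lay above 0, with a median of -0.17, a value that stayed below 0 under all scalings run but reached -0.02. Among the 20 of them at or above 10000 units the median was -0.21 and all 20 were below 0, while the other 231 genes as bright had a median of -0.16 with 200 below 0. Cox7a1, a muscle subunit of cytochrome oxidase, was the 1 member past 2-fold, at 882.2 and 785.1 units in the sham and 797.5 and 382.8 in the denervated legs (-1.06). Other subunits of that enzyme, Cox4i1 and Cox6a2, gave -0.26 and -0.33. The citric acid cycle list had a median of -0.13 with 1 of 14 above 0, and fatty acid oxidation -0.15 with 5 of 24, which reached 0.02 and 0.00 in turn under other scalings. Glycolysis gave -0.18 with 3 of 16 above 0, among them lactate dehydrogenase A (Ldha) at 0.14. Ppargc1a, the coactivator that drives mitochondrial genes, read 627.8 and 785.2 (0.32, with 3 probe sets from 0.07 to 0.32).

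Beyond the lists, the highest ratio above the floor on both arrays was that of Gda, guanine deaminase of purine breakdown, at 892.4 units on control and 2748.4 on genistein, 3.08-fold higher. A second probe set gave 0.68, and the sham arrays read 1739.1 and 2148.5. Obp3, an odorant-binding lipocalin and chosen after its value was seen, was under the floor at 57.9 on control and read 374.6 on genistein, at least 4.75-fold higher. Rbp4, the plasma carrier of retinol that liver and fat make, read 103.9 and 278.9 (1.42). The neuropeptide Y receptor Npy1r gave 1.43, the glucose transporter Slc2a3 1.43 and the nuclease Dnase1l3 1.34. Ube3al1, also among the 15, read 274.6 and 719.5 (1.39).

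Among lower genes Akr1b8, an aldo-keto reductase of aldehyde clearance, stood apart. It read 1463.9 units on control and 294.3 on genistein, 4.97-fold lower, on its 1 probe set. In the sham legs it read 275.6 and 149.7, also lower on genistein (-0.88). Car14, a membrane carbonic anhydrase, read 223.5 and 102.9 (-1.12), with a second probe set at -0.48 and with 1896.8 and 2465.8 in the sham legs. Itpk1, an inositol phosphate kinase, read 315.5 and 143.4 (-1.14), and the dynamin Dnm2 199.4 and 93.7 (-1.09). Abhd14a gave -1.17 on 1 probe set and -0.10 on another. Tpd52l1 (-0.98), Plcd4 (-0.94), Dpyd (-0.92), Rerg (-0.91), Xab2 (-0.96) and Ins1 (-0.97) followed within the 15 lowest and did not reach 2-fold. Ttyh1 (-1.06) and the histone gene H4cl1 (-1.02) just did, with genistein signals of 84.4 and 88.4 units, close to the floor. Across the settings run, the ratio nearest to 0 was -0.26 for Ttyh1, -0.73 for H4cl1 and -0.04 for Car14. For Akr1b8 it was -2.14.

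The same genes were then read on the sham arrays, which the choice of genes did not use but which hold RNA of the same rats. Of the 107 higher genes 104 were measured there, 66 lay above 0 (63.5%, against 50.3% of all genes measured in both comparisons), and the median sham ratio was 0.13, ranging from -1.16 to 1.50. At least 2-fold higher in the sham leg were 4 of them, where the share of all genes was 0.324%. These were Cish, the flavin monooxygenase Fmo2 (1.50), Ccdc68 (1.29) and the myosin Myo1f of leukocytes (1.15), the last 3 chosen after their values were seen. The ratio of Ccdc68 is a lower bound, since its control sham signal of 58 units was under the floor. Each of the 4 was higher on both genistein arrays than on both control arrays, which passing 2-fold in both legs nearly fixes and which held for 10.1% of the 10147 genes measured in both legs. Spns2, a sphingosine-1-phosphate transporter, was 2-fold lower (-1.16), where that share was 0.287%. The sham ratios were thus mostly smaller, which follows in part from choosing the genes on the denervated arrays. Of the 13 lower genes 11 were measured in the sham legs, 3 above 0 and 8 below, with a median of -0.08.

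**Figure D4:**
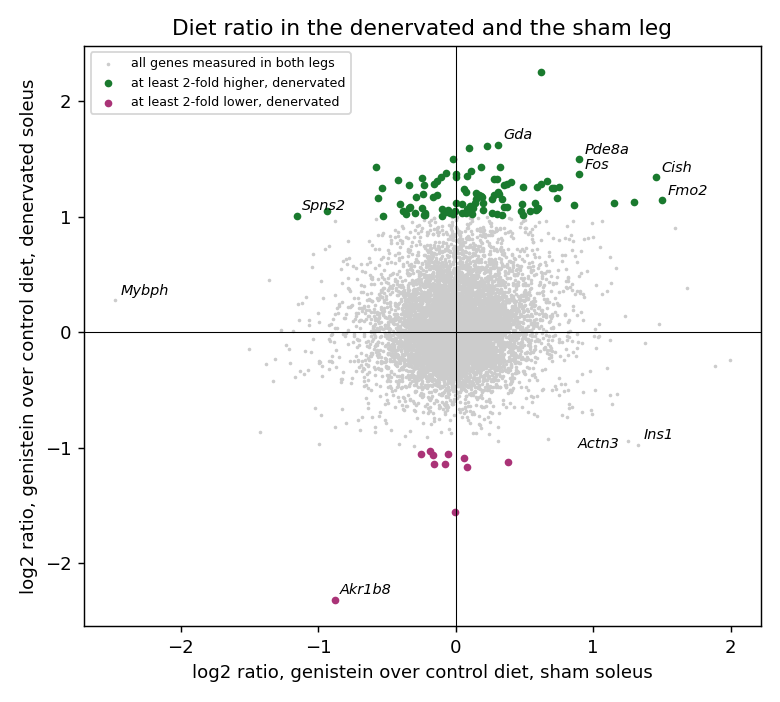
Each point is a gene measured in both legs, with its log2 ratio of genistein over control diet in sham soleus on the x axis and in denervated soleus on the y axis, and the genes past 2-fold in denervated soleus in colour. The 104 of the 107 higher genes measured in both legs (green) spread around a sham median of 0.13, with Cish, Fos and Pde8a to the right, and Akr1b8 is lower in both legs.

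Set beside the sham level of their own diet, the 107 higher genes had a median ratio of denervated over sham of -0.80 in control rats and 0.24 in genistein rats. For the 13 lower genes the medians were 0.27 and -0.82. These ratios share the denervated arrays with the comparison that chose the genes, so their opposite signs are partly fixed by that choice and are given as levels only. Over whole lists, the medians for leukocyte markers were -0.72 on control and -0.03 on genistein, for endothelial markers -1.02 and -0.31, and for fibrillar matrix genes -1.29 and -0.68. On all genes they were 0.00 and 0.02.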

How the data were processed

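For each of 4 Affymetrix arrays the deposited values are linear intensities, 1 per probe set, and the submitters' processing notes name GCOS 1.1, the scanner maker's software. The scaling target and genome build were not given in the sources used here. After scaling by the authors, mean intensity without the top and bottom 2% of probe sets was 500.0 on each array, so no further scaling was applied. Of 31099 probe sets 57 controls were left out. The platform annotation gave 20826 of them 1 symbol (20758 matched to RefSeq GRCr8), 436 several, and 9780 none listed. The brightest probe set (by mean log2 signal over the arrays) stood for each gene. With 1 pooled array a group no test was run, and at least 2-fold is the rule for a call. Arrays have no read depth, and their number limits the precision. Named genes are the 15 highest and 15 lowest ratios above the floor on both arrays, up to 6 of the largest ratios per list, and a fixed list of further genes. The members and lists were chosen with earlier results of these data known. Python 3.11.15, pandas 2.3.3 and numpy 2.4.6 were used. The code was tested on simulated data. Alternatives were other scalings, floors and probe set rules.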

Additional observations from a re-analysis of the deposited data

Results flagged for a closer look

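In 4 named genes the diet ratio had opposite signs in the denervated and sham legs and the ratios were at least 2 log2 units apart. With 1 array a group the difference was not tested. For Rbp4 the denervated ratio minus the sham ratio was 2.00, from 1.42 and -0.58. For Mybph, a myosin-binding protein, it was 2.75, from 0.28 and -2.48, and its signal stood apart on the genistein sham array, at 645.5 units against 3597.1, 2924.3 and 3540.1 on the other arrays. For the fast-fibre gene Actn3 it was -2.20, from -0.94 and 1.25. For Ins1 it was -2.30, from -0.97 and 1.33, on signals of 170.9 and 87.1 units in the denervated and 86.9 and 218.0 in the sham legs, control before genistein.

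Probe sets without a single gene symbol took no part in the gene counts. Of 10216 such probe sets 5077 were above the floor in the denervated comparison, and 37 of them read higher on genistein by 2-fold or more and 6 lower, against 19 and 27 in the sham comparison.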

How the results depend on the processing

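Of the alternatives, the counts of calls moved most. Genes at least 2-fold higher on genistein numbered 107 on the authors' scale, 61 after median scaling, 254 after scaling on the hybridisation controls and 31 when the floor was raised to the 60th percentile. Genes at least 2-fold lower numbered 13, then 27 after median scaling, 2 with the higher floor, 25 with no floor and a pseudocount of 50, 6 with the mean of all probe sets, and 8 when both arrays had to be above the floor, a rule added after seeing the data. The higher count was 72 after quantile normalization, 104 with no floor, 75 with the mean of probe sets, 92 when every measured probe set had to pass and 94 with both arrays above the floor. Only 17 of the 107 had another measured probe set, past 2-fold for 2 of them. The rule on every probe set could not remove the rest. Of the 107, the number kept was 61, 65 and 107 under median, quantile and control-based scaling, and 49 with no floor. The median of slow-fibre genes was -0.047 after quantile normalization, that of Schwann cell genes 0.29 with no floor and that of class II genes 0.42 with the mean of probe sets. Of 35 list medians 17 kept their sign under every setting run. All 43 named genes past 2-fold kept theirs, which the size of their ratios nearly fixes. Median and control-based scaling moved the median of all genes only to -0.13 and 0.15, so nothing is read from that count. The size of some ratios of dim genes was not kept. The lowest values under any setting were 0.12 for Tnc, 0.18 for Itgb2, 0.19 for Sox18, 0.24 for Fcgr2b and 0.25 for Plin1. They were 0.81 for Ptprc, 1.01 for Lox and 1.475 for Scd. The causes of these shifts were not tested. No paired analysis was possible because each group is 1 pooled array, and leaving out a replicate could not be done for the same reason. Signals near the floor limit the dim genes, and 13 of the 107 ratios are lower bounds.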

Other observations

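Clock genes were mostly close to 0 in the denervated leg, with 9 of 14 above 0 and a median of 0.05 that changed sign with the scaling. Per1, a clock gene that glucocorticoids and light-driven signals also induce, read 64.9 and 238.6 units in the sham and 234.2 and 438.3 in the denervated legs, control before genistein, and was higher on genistein in each (1.60 and 0.90). The control sham signal of Per1 was under the floor, so its sham ratio of 1.60 is a lower bound. The clock output gene Dbp gave -0.23, and Bmal1 0.49. Fmo2, a flavin monooxygenase chosen after its values were seen, read 85.3 and 97.1 on control and 241.1 and 214.4 on genistein.

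On the authors' scale chaperones lay below 0 in all 11 measured members, with a median of -0.20, and 9 of 11 did so in the sham leg, where the median was -0.24. Of these 11 genes 4 read at least 10000 units, a level at which 220 of 251 genes of any kind lay below 0 with a median of -0.16. The small heat shock protein Hspb1 read 10725.6 and 9330.0 units (-0.20), and Hsph1 4505.6 and 3397.1 (-0.41). Of the ribosomal protein genes 1 of 15 lay above 0, and their median of -0.11 turned to 0.04 after scaling on the hybridisation controls. On that brightness scale 14 of the 15 read at least 10000 units. In the antioxidant list catalase (Cat) read 12198.1 and 8396.1 (-0.54), while haem oxygenase (Hmox1) gave 0.41 and glutathione reductase (Gsr) 0.56, with 6 of 17 above 0 and a median of -0.10 that changed sign with the scaling. In the endoplasmic reticulum stress list Trib3 read 682.5 and 431.0 (-0.66) and Asns gave 0.61, and 9 of 15 lay above 0.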
